A study of Homo sapiens with 44 samples.

Results

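The 10 genes described here encode 3 connexins (GJA1, GJA5 and GJC1), 5 desmosome proteins (DSP, PKP2, DSG2, DSC2 and JUP), the adherens junction protein CTNNA3 and the disc protein XIRP1. They were chosen by name, with earlier results of these data known, as components of the intercalated disc and its gap junctions. They were matched to Ensembl identifiers through GENCODE 29. They make up 10 of the 60499 genes in the count table, and all 10 were among the 22955 genes with enough counts to be tested. RNA was sequenced from 44 culture wells of the established human embryonic stem cell line H1 during differentiation towards heart cells. Day 5, 7, 9 and 11 each have 5 wells by the sample labels, although the series text gives triplicates, and the other 8 groups have 3 wells each.

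Pluripotent wells were kept on the laminin LN-521, and the wells of days 0 to 90 on LN-521 with LN-221. Day 0 cells were in Nutristem medium. Cells of days 1 and 3 had received B27 without insulin and CHIR99021, which blocks the kinase GSK3 and so turns on Wnt signalling. Day 5 cells had received the same supplement with IWP2, an inhibitor of Wnt production, and day 7 and day 9 cells the supplement alone. Cells of days 11, 14, 20, 30 and 90 were in RPMI with CTS B-27, the complete supplement. All wells come from 1 cell line and nothing says that they were separate differentiations, so p-values measure the spread between wells, which may be technical. Wells hold mixed cells, and fewer cells of a type and less RNA per cell cannot be told apart.

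The intercalated disc joins heart muscle cells end to end. Its desmosomes and adherens junctions hold the cells together through cadherins tied to the cytoskeleton, and its gap junctions, built from connexins, carry the electrical signal from cell to cell. In the working myocardium GJA1 (connexin 43) is the main connexin, GJA5 (connexin 40) marks atrial and conduction cells and also arterial endothelium, and GJC1 (connexin 45) is prominent in the early embryonic heart and in nodal cells.

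Levels of 1 gene across wells are in CPM (counts per 1000000, after TMM scaling of the libraries), with mean ± SD over wells. Levels of different genes are compared only as TPM, which allow for transcript length. The libraries held 6937136 to 33498022 counts. The summed level of 5 cardiomyocyte markers (TNNT2, MYH6, ACTN2, MYL7 and TNNI1) was 29.5 to 59.6 CPM in the wells up to day 3 and 340.4 to 706.2 CPM at day 5. From day 7 on it was 5053 to 19581 CPM. The 4 pluripotency markers (POU5F1, NANOG, SOX2 and DPPA4) summed to between 2540 and 2594 CPM in the day 0 wells and to between 16.0 and 24.6 CPM in the day 9 wells.

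**Figure D1:**
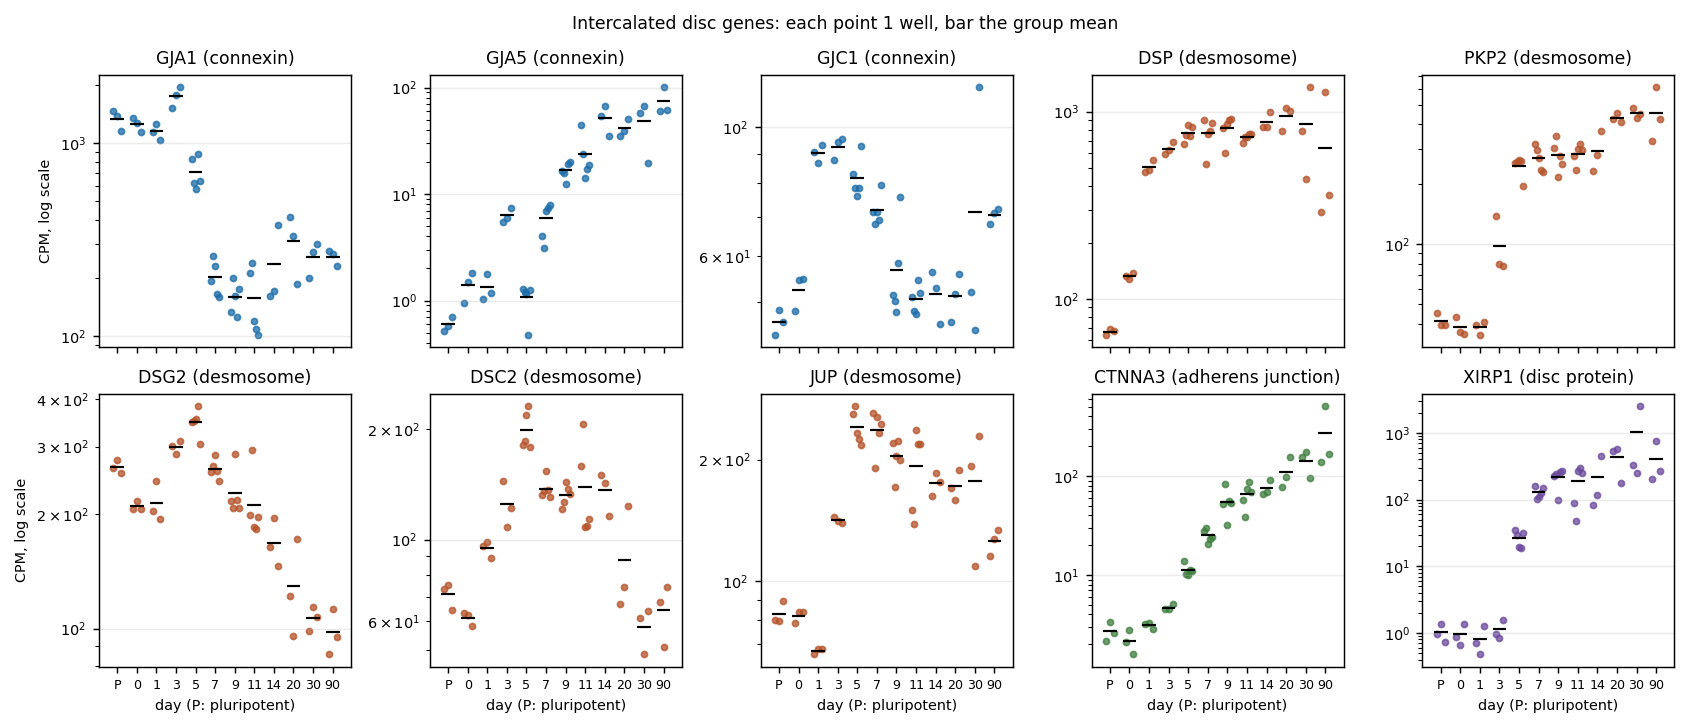
CPM of the 10 genes on log scales against the sampled day (P: pluripotent), with 1 point per well and a bar at the mean of each group of 3 or 5 wells. GJA1 lies at 1041 to 1951 CPM up to day 3 and at 102 to 415 CPM from day 7 on, whereas XIRP1 lies at 0.482 to 1.58 CPM up to day 3 and at 47.4 to 2498 CPM from day 7 on.

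From day 0 to day 9 the disc genes changed in opposite directions. GJA5, DSP, PKP2, DSC2, JUP, CTNNA3 and XIRP1 rose, GJA1 fell, and GJC1 and DSG2 were not called. A gene was called when edgeR's quasi-likelihood test gave it a p under 0.05 after adjustment over all genes tested and a log2 fold change no smaller than 1 in size. Thus 8 of 10 genes were called, where 31.7% of all tested genes were (17.1% as higher and 14.6% as lower). The median log2 fold change of the 10 genes was 1.97, and that of all tested genes 0.08. The groups did not overlap for 8 of the 10 genes, and for 56.0% of all tested genes.

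Over the first 3 days, 5 of the 10 genes rose and 0 fell, where 16.6% of all tested genes were called, 7.81% as higher and 8.76% as lower. The wells of the groups did not overlap for 9 of the 10 genes, and for 58.2% of all tested genes. Between days 3 and 9, 4 rose and 1 fell, where 21.2% of all tested genes were called, 12.3% as higher and 8.88% as lower. The groups were apart for 7 of the 10 genes, and for 44.9% of all tested genes. In late culture, day 9 to day 90, 2 rose and 2 fell, where 23.9% of all tested genes were called. The groups were apart for 6 of the 10 genes, and for 36.7% of all tested genes. The median log2 fold changes of the 10 genes over these 3 spans were 0.92, 0.45 and 0.50, beside 0.02, 0.02 and -0.02 over all tested genes. Day 0 is shared by the comparisons of day 3 and of day 9 with it, and day 9 by those with days 0, 3 and 90.

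The deposited TPM gave smaller counts in 2 of the 4 spans, and they shift the median gene against the scaled counts by -0.37 on the log2 scale from day 0 to day 9 and by 0.27, -0.64 and -0.54 over the other spans. In limma on log2(TPM + 1), 6 of 10 genes were called from day 0 to day 9, and DSC2 (0.65, adjusted p = 0.17) and JUP (0.83, adjusted p = 0.037) were not. From day 0 to day 3 limma called 3 genes, without GJA5 (1.03, adjusted p = 0.072) and CTNNA3 (0.48, adjusted p = 0.60). From day 3 to day 9 GJA5 (0.47, adjusted p = 0.33) and PKP2 (0.92, adjusted p = 0.031) were not called by limma, while GJC1 (-1.25) and DSG2 (-1.03) were called as fallen. From day 9 to day 90 CTNNA3 (0.87, adjusted p = 0.095) was not called, and JUP (-1.15) was called as fallen. Each of these named changes had the same sign in the counts.

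Over the 11 steps, 15 of 110 pairs of a gene and a step were called, where 5.34% of all such pairs over the tested genes were. All 15 lay among the 60 pairs up to day 9, where 8.21% of all such pairs were called. Among the 50 pairs from day 9 to day 90, edgeR's quasi-likelihood test called 0, with 11 at an unadjusted p under 0.05. Of all such late pairs 1.9% were called, so 0 of 50 is near the background. There, DESeq2 called 1 pair and limma on log2(TPM + 1) called 2. From the pluripotent wells to day 0, edgeR also called 0 of 10 genes, where 2.91% of all tested genes were called, with 3 at an unadjusted p under 0.05, and DESeq2 called 1 and limma 0.

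**Figure D2:**
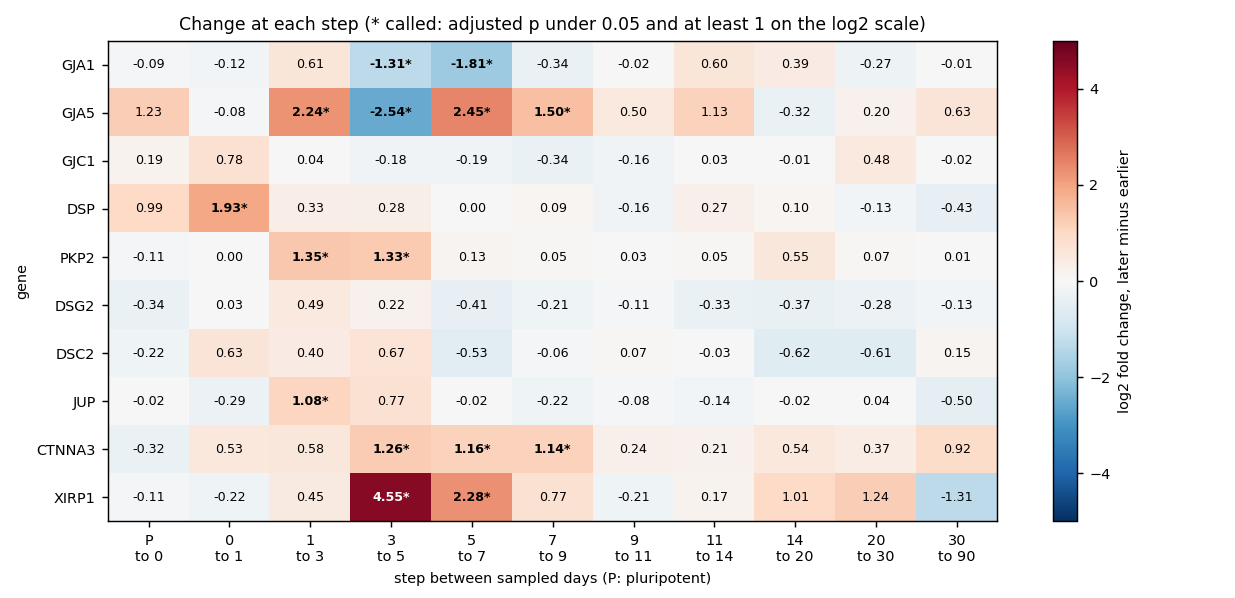
Log2 fold change of each of the 10 genes (rows) at each of the 11 steps between sampled days (columns), later minus earlier, with the 15 called pairs in bold with a star. The largest called value is the 4.55 of XIRP1 from day 3 to day 5, and no pair to the right of the step from day 7 to day 9 is called.

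GJA1 (ENSG00000152661, GRCh38 chromosome 6, 121435577 to 121449727, plus strand) was the most abundant connexin transcript of the undifferentiated wells and fell over days 3 to 7. Its level was 1346, 1269 and 1133 CPM in the 3 day 0 wells, and 1525, 1779 and 1951 CPM at day 3. The 5 day 5 wells had 823, 621, 577, 879 and 638 CPM, and the 5 day 9 wells 133, 199, 160, 125 and 175 CPM. These groups did not overlap. From day 3 to day 5 GJA1 fell by 1.31 ± 0.26 on the log2 scale (SE, adjusted p = 0.00027), and from day 5 to day 7 by a further 1.81 ± 0.23 (adjusted p = 5.4e-07), both in edgeR's quasi-likelihood test. Over the whole span from day 0 to day 9 the fall was 7.88-fold (adjusted p = 6.7e-12, edgeR).

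GJA1 then stayed low. The lowest group mean was 156 ± 64.4 CPM at day 11 (SD, n = 5), and the day 90 wells had 274, 266 and 229 CPM. Every day 90 well was above every day 9 well, yet the difference of 0.69 ± 0.26 (log2, SE, adjusted p = 0.031, edgeR) did not reach the fold required for a call. In the order of its group means, day 3 stood apart from the pluripotent wells, day 1 from day 5, and day 5 from day 20, and every other pair of neighbours overlapped. The highest group mean, at day 3, was 11.2 times the lowest.

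GJA5 (ENSG00000265107, chromosome 1, 147756199 to 147773362, minus strand) rose from day 0 to day 9, where GJA1 fell, and did so in 2 waves. In the first wave it did not oppose GJA1, which was also highest at day 3 and fell to day 5. The pluripotent wells had 0.522, 0.582 and 0.693 CPM, and the day 0 wells 0.940, 1.5 and 1.8 CPM. The day 3 wells reached 5.48, 5.99 and 7.40 CPM, and the day 5 wells were back at 1.28, 1.2, 1.16, 0.478 and 1.26 CPM. No day 3 well overlapped with day 1 or day 5. GJA5 rose by 2.24 ± 0.42 on the log2 scale from day 1 to day 3 (SE, adjusted p = 7e-05) and fell by 2.54 ± 0.36 from day 3 to day 5 (adjusted p = 2.2e-06) in edgeR's quasi-likelihood test.

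The second rise of GJA5 began after day 5. Its wells had 3.11 to 7.98 CPM at day 7 and 12.4 to 19.9 CPM at day 9. The steps were 2.45 ± 0.34 (log2, SE, adjusted p = 1.8e-06) and 1.5 ± 0.30 (adjusted p = 0.003) in edgeR's test. The day 90 wells had 60.5, 102 and 62.1 CPM, all above the day 9 wells, which was a further 4.46-fold rise (adjusted p = 1.3e-06, edgeR). One day 30 well, replicate 3, had 19.5 CPM where the other 2 had 57.9 and 67.4 CPM. The group mean of day 90 was 125 times that of the pluripotent wells.

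The group means of endothelial markers moved with those of GJA5 between days 1 and 9. The summed level of PECAM1, CDH5, VWF, TIE1 and ERG was 3.12 to 4.89 CPM at day 1, 63.8 to 130.8 CPM at day 3 and 22.3 to 87.0 CPM at day 5. It was 48.6 to 154 CPM at day 7 and 88.7 to 136 CPM at day 9, over which days GJA5 rose again. All 5 markers were above 3 counts in some well of each group. From day 9 to day 90, while GJA5 rose further, the same sum went down to between 0.905 and 5.24 CPM. The part of endothelial cells in the GJA5 levels was not tested. An antisense gene, AC241644.3, overlaps GJA5, and whether reads were counted by strand is not given in the sources used here.

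GJC1 (ENSG00000182963, chromosome 17, 44798448 to 44830816, minus strand) had the narrowest range of the 10 genes, with a highest group mean 2.00 times the lowest. Its day 0 wells had 48.4, 54.5 and 54.7 CPM, the day 3 wells 87.8, 94.4 and 95.4 CPM, and the day 9 wells 48.1 to 75.9 CPM. Day 3 was apart from day 0 and from day 9, but neither change met the fold threshold. The log2 fold changes were 0.82 ± 0.19 (SE, adjusted p = 0.0012) and -0.70 ± 0.17 (adjusted p = 0.00098) in edgeR's test. From day 0 to day 9 the difference was 0.11 ± 0.17 (adjusted p = 0.61). GJC1 was called at 0 of 11 steps, and no neighbours in the order of its 12 group means were apart. The highest single well was replicate 3 of day 30, with 117 CPM against 52.0 and 44.8 CPM.

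Within each library, the make-up of the connexin transcripts shifted from nearly pure GJA1 to a mixture. GJA1 held 95.2% ± 0.964 of the summed TPM of 21 connexin genes at day 0 (SD, n = 3), 90.4% ± 1.89 at day 5 (n = 5), 57.8% ± 5.37 at day 9 (n = 5) and 43.4% ± 12.1 at day 90 (n = 3). The share of GJA5 went from 0.106% ± 0.0404 at day 0 to 6.23% ± 1.08 at day 9 and 12.2% ± 0.773 at day 90. That of GJC1 was 3.19% ± 0.738, 13.4% ± 2.64 and 8.02% ± 2.83 on the same days. GJC1 held the second largest share of these 3 on days 0 and 9 and the third on day 90, while the summed connexin TPM went from 256.2 at day 0 to 44.7 at day 9.

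Another connexin, GJA3 (connexin 46, best known from the lens), came to hold a larger share than GJA5. Its share was 0.0658% ± 0.0176 at day 0, 7.04% ± 1.62 at day 9 and 27.1% ± 20.0 at day 90. Single wells of day 90 ranged from 13.1% to 49.9%, with the highest in replicate 4.

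**Figure D3:**
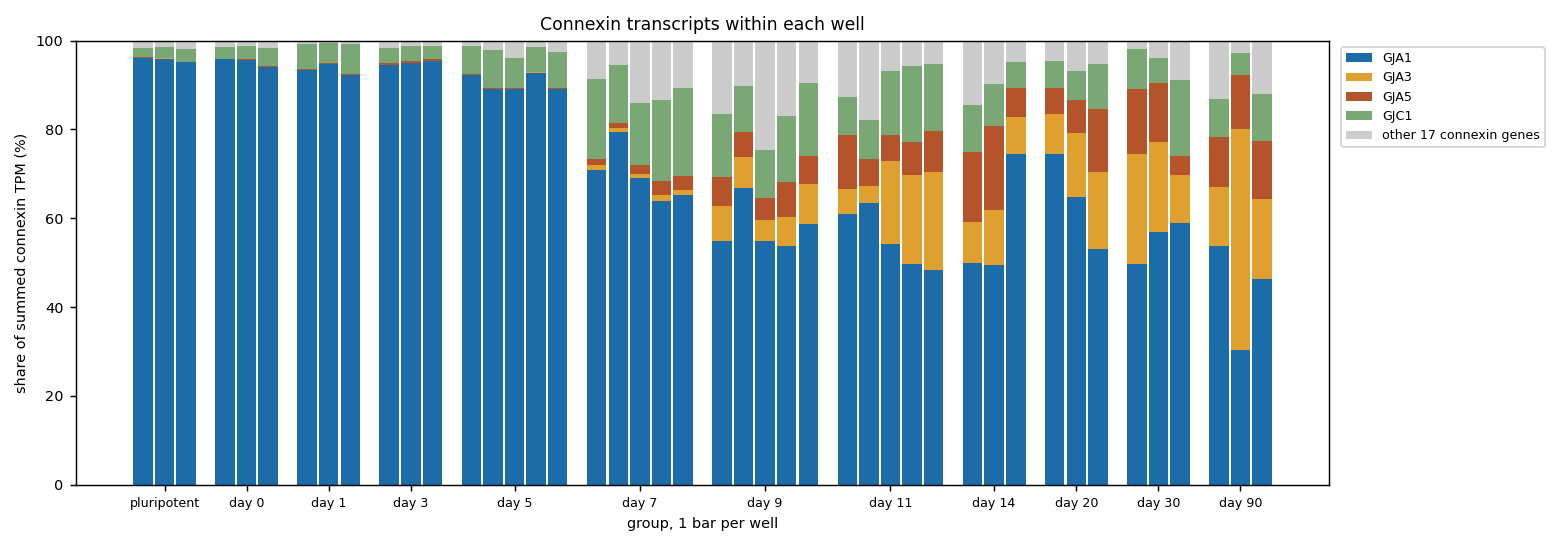
Share of the summed TPM of 21 connexin genes (y axis, percent) held by GJA1, GJA3, GJA5, GJC1 and the other 17 genes, with 1 stacked bar per well in the order of the groups. GJA1 holds at least 89.0% of the sum in the wells up to day 5 and 30.2% to 79.4% from day 7 on.

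The ratio of GJA5 to GJA1 within a library rose at both spans. Scaling between libraries moves it only through the 0.1 added to each TPM. That constant is large beside the 0.18 to 0.35 TPM of GJA5 at day 0, so the size of the first difference depends on it. On log2(TPM + 0.1) the mean ratio was -9.40 ± 0.45 at day 0 (SD, n = 3), -3.17 ± 0.31 at day 9 (n = 5) and -1.78 ± 0.45 at day 90 (n = 3). The differences were 6.23 and 1.39, each with p = 0.0179 in a two-sided exact permutation test, the smallest p that 5 against 3 wells allow, and 0.0286 after adjustment over 8 ratio tests. The ratio of GJC1 to GJA1 rose by 2.80 from day 0 to day 9 (adjusted p = 0.0286, exact permutation test). From day 9 to day 90 it differed by -0.33, with overlapping wells (adjusted p = 0.196, exact permutation test).

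Of the other 18 connexin genes, 13 had enough counts to be tested. Between days 0 and 9, 3 rose and 4 fell, beside 31.7% called over all tested genes. Between days 9 and 90, 8 rose and 3 fell, beside 23.9%. GJA3 rose from 1.56 to 33.8 CPM from day 0 to day 9 (log2 fold change 4.43 ± 0.48, SE, adjusted p = 1e-09) and to 349 CPM at day 90 (3.37 ± 0.37, adjusted p = 2.5e-09) in edgeR's test. GJA4 (connexin 37, an arterial endothelial connexin) had 0.835 CPM at day 0, 9.51 CPM at day 3 and 9.91 CPM at day 9, and was called as risen at both. At day 90 it had 0.132 ± 0.129 CPM, within the level that 3 counts give, and was called as fallen. GJC3 fell from 2.83 to 0.449 CPM between days 0 and 3. GJB1 rose to 8.99 ± 10.6 CPM at day 9 and GJB2 to 15 ± 7.14 CPM at day 90, both connexins of epithelia, and the SD of GJB1 exceeded its mean.

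The sequences before the starts of GJA1 and GJA5 are shown because these connexins moved in opposite directions from day 0 to day 9. They are the 250 bases before the RefSeq start (GRCh38.p14), written 5′ to 3′ on the strand of the gene, at chr6:121435396-121435645 (plus strand) and chr1:147773352-147773601 (minus strand, the outer of 2 starts). Neither window held a match to the motifs searched, which are listed with the window of XIRP1 further on, and capitals would mark one.
GJA1: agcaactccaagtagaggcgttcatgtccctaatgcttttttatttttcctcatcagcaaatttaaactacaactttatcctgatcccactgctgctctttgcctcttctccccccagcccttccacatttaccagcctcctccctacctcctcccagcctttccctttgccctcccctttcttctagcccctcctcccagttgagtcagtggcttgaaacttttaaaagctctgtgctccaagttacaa
GJA5: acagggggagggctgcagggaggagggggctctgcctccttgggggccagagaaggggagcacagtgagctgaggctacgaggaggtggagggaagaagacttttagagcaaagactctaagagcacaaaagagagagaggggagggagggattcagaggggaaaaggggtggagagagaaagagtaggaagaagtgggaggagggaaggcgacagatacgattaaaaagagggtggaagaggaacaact

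The desmosome genes did not move as a unit. DSP rose from day 0 to day 1, PKP2 and JUP rose from day 1 to day 3, DSC2 rose by day 3 and later fell, and DSG2 fell from day 9 to day 90. Desmoplakin (DSP) links the desmosome to intermediate filaments, plakophilin 2 (PKP2) and plakoglobin (JUP) are its armadillo proteins, and desmoglein 2 (DSG2) and desmocollin 2 (DSC2) are its cadherins.

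DSP (ENSG00000096696, chromosome 6, 7541575 to 7586717, plus strand) rose from day 0 to day 1, when both the medium changed and CHIR99021 was added. The pluripotent wells had 64.4, 69.0 and 67.3 CPM, the day 0 wells 133, 128 and 137 CPM, and the day 1 wells 477, 487 and 551 CPM. All 3 groups were apart. The rise from day 0 to day 1 was 3.81-fold (log2 1.93 ± 0.32, SE, adjusted p = 2.5e-05, edgeR), and DSP was the only one of the 10 genes called at this step, where 13.5% of all tested genes were called. At day 9 its 5 wells had 603 to 918 CPM, 6.19-fold above day 0 (adjusted p = 9.2e-09, edgeR). In late culture the wells spread out. The day 30 wells had 793, 438 and 1356 CPM, and the day 90 wells 289, 1277 and 357 CPM.

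The late course of DSP depends on 1 well and on the measure. Against day 9 the log2 fold change at day 90 was -0.36 ± 0.28 (SE, adjusted p = 0.34, edgeR). Without replicate 4 of day 90, the well with 1277 CPM, it was -1.33 (adjusted p = 2.5e-05, edgeR) and DSP was called as fallen. Replicate 4 was above the day 9 range of 603 to 918 CPM, and the other 2 wells were below it. In replicate 4 the fibroblast and epicardial markers (COL1A1, DCN, POSTN, WT1 and TCF21) summed to 318 CPM, against 1799 and 1015 CPM. The cardiomyocyte sum was 16906 CPM there, against 12447 and 13563 CPM. Whether the mix of cells has a part in the DSP levels was not tested. With all wells kept, limma on log2(TPM + 0.1) called DSP as fallen (-1.21, adjusted p = 0.042), but limma on log2(TPM + 1) did not call it.

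PKP2 (ENSG00000057294, chromosome 12, 32790745 to 32896840, minus strand) rose in 2 steps between days 1 and 5. Its wells had 39.6, 35.3 and 40.9 CPM at day 1, 138, 80.0 and 77.6 CPM at day 3, and 256, 258, 263, 262 and 196 CPM at day 5. The groups did not overlap, and the steps were 1.35 ± 0.20 (log2, SE, adjusted p = 2.7e-06) and 1.33 ± 0.19 (adjusted p = 1.9e-06) in edgeR's test. From day 5 to day 14 the group means lay between 247 and 294 CPM. The wells of days 20 and 30 had 410 to 484 CPM, and those of day 90 had 328, 614 and 426 CPM. Day 90 was 0.71 ± 0.18 above day 9 on the log2 scale (SE, adjusted p = 0.0014, edgeR), under the fold required, and the groups overlapped.

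JUP (ENSG00000173801, chromosome 17, 41754604 to 41786931, minus strand) rose after day 1. It had 78.6, 83.7 and 83.9 CPM at day 0, 65.9, 67.7 and 67.7 CPM at day 1, and 144, 141 and 139 CPM at day 3. The 3 groups were apart. The difference from day 0 to day 1 was -0.29 ± 0.18 (log2, SE, adjusted p = 0.27, edgeR) and was not called. The rise from day 1 to day 3 was 1.08 ± 0.18 (log2, SE, adjusted p = 1.5e-05, edgeR). JUP was highest at day 5 with 241 ± 22.7 CPM (SD, n = 5), and the day 90 wells had 116, 127 and 134 CPM, all below the day 9 wells at 171 to 222 CPM. That fall of 0.70 on the log2 scale (adjusted p = 0.00073, edgeR) was under the fold required.

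DSG2 (ENSG00000046604, chromosome 18, 31498043 to 31549008, plus strand) and DSC2 (ENSG00000134755, chromosome 18, 31058840 to 31102522, minus strand) had their highest group means at day 5 and fell from day 9 to day 90. DSG2 had 206, 216 and 206 CPM at day 0, 348, 351, 355, 383 and 305 CPM at day 5, and 85.7, 112 and 95.0 CPM at day 90. Its 2 lowest group means were those of days 30 and 90. Every day 90 well was below every day 9 well, and the fall was 2.33-fold (log2 -1.22 ± 0.16, SE, adjusted p = 6.9e-08, edgeR). From day 0 to day 9 the difference was 0.12 ± 0.15 (adjusted p = 0.54, edgeR).

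DSC2 had 63.1, 62.3 and 58.2 CPM at day 0, 179 to 230 CPM at day 5, 121 to 144 CPM at day 9, and 67.8, 51.1 and 74.3 CPM at day 90. It rose 2.16-fold from day 0 to day 9 (adjusted p = 3.7e-06) and fell 2.05-fold from day 9 to day 90 (adjusted p = 1.6e-05) in edgeR's test, with no overlap of wells in either. Its day 90 wells overlapped with those of day 0. Both of its smaller calls sit at the fold threshold. The fall was 0.96 on the log2 scale with RLE size factors or DESeq2, 0.99 with the replicate block, and 0.89 without replicate 4 of day 90. The rise from day 0 to day 3, 1.03, was 0.97 with lane as a covariate and 0.94 without replicate 1 of day 3. Neither DSG2 nor DSC2 was called at any of the 11 single steps. Antisense genes overlap both (DSG2-AS1 and DSCAS), and PKP2 overlaps AC087588.2 and AC087588.1, so their values share the doubt about strand.

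Some wells with high DSG2 also had high epithelial and endoderm markers (EPCAM, CDH1, FOXA2, KRT8, KRT18, AFP and TTR). Replicate 2 of day 9 had 287 CPM of DSG2 against 207 to 218 CPM in the other 4 wells, and a marker sum of 6869 CPM against 2832 to 3802 CPM. Replicate 2 of day 11 had 294 CPM of DSG2 against 183 to 199 CPM. Its marker sum was 9825 CPM, that of replicate 1 of day 11 was 5945 CPM, and those of the other 3 wells were 1874 to 2351 CPM. All 7 markers were above 3 counts in some well of both days. Over the group means the marker sum was 4066 CPM at day 9, 5002 CPM at day 14, 4183 CPM at day 20 and 1204 CPM at day 90. On the same days DSG2 had 227, 168, 130 and 97.7 CPM, and DSC2 had 132, 136, 88.3 and 64.4 CPM. DSG2 thus fell by day 14 and day 20, while the marker sum did not. At day 30, replicate 10 had the lowest marker sum of its group, 769 CPM, and the highest DSG2, 114 CPM. The part of these cells in the DSG2 and DSC2 levels was not tested.

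**Figure D4:**
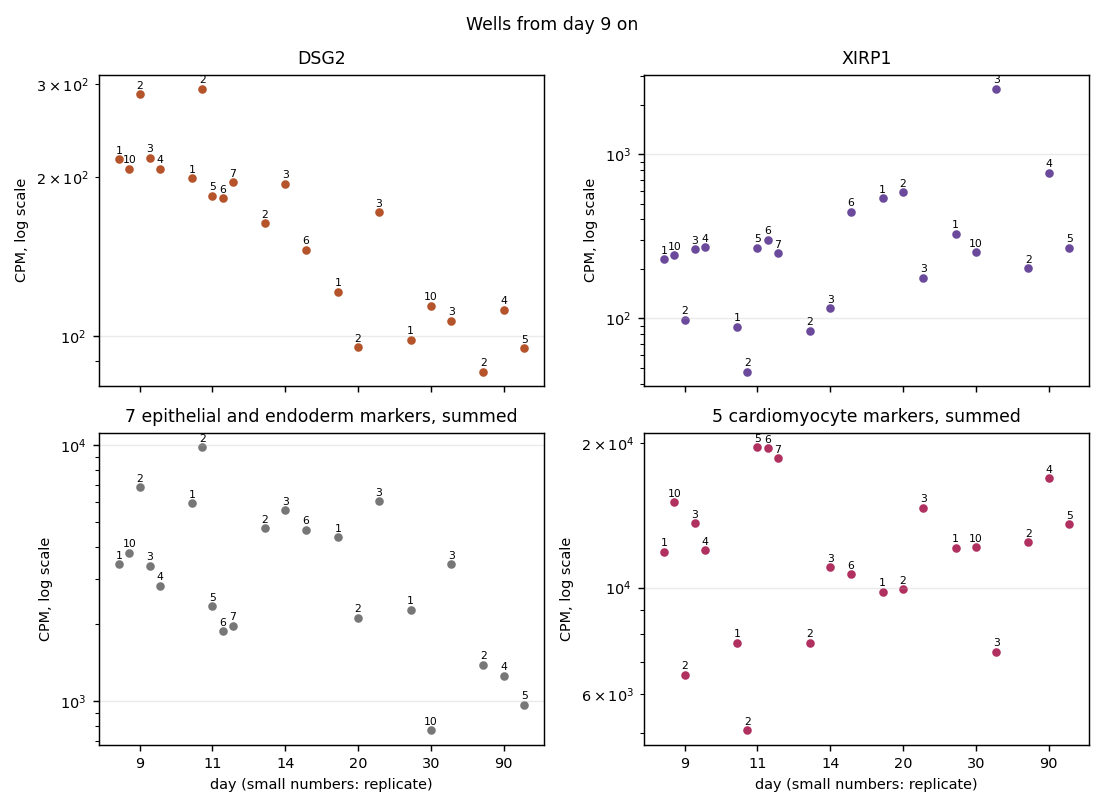
CPM of DSG2, XIRP1, the 7 epithelial and endoderm markers summed and the 5 cardiomyocyte markers summed, on log scales, in each well from day 9 to day 90 (small numbers: replicate). Replicate 2 of day 9 and replicate 2 of day 11 are the highest wells of their day for DSG2 and the epithelial sum, and replicate 2 is the lowest of both days for XIRP1.

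Measured per transcript length, the ranking of the 10 genes changed. GJA1 had the highest mean TPM of the 10 in every group up to day 5, with 244 ± 18.8 TPM at day 0 (SD, n = 3). DSP ranked first at days 7, 9, 11 and 14, with 44.1 ± 24.9 TPM at day 9 (n = 5), but within the spread between wells of the next gene. At day 7 it had 41.4 ± 18.4 TPM beside 40.5 ± 15.5 TPM of JUP, and at day 11 38.3 ± 12.7 TPM beside 37.5 ± 11.6 TPM of PKP2. PKP2 ranked first at days 20 and 90, with 39.4 ± 19.8 TPM at day 90 (n = 3) beside 26.8 ± 6.46 TPM of GJA1, a difference within the spread between wells. XIRP1 ranked first at day 30 through 1 well, with 120 ± 165 TPM.

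The other 11 desmosome genes were all tested. Between days 0 and 9, 1 rose and 3 fell, a share near the 31.7% called over all tested genes. Between days 9 and 90, 5 rose and 0 fell, beside 23.9%. The desmocollin DSC3 rose from 2.49 to 30.7 CPM from day 0 to day 9 (log2 fold change 3.62 ± 0.63, SE, adjusted p = 9.7e-06, edgeR). The ratio of DSC2 to DSC3 within a library fell by 1.96 on log2(TPM + 0.1) from day 0 to day 9 (adjusted p = 0.0286, exact permutation test). With TPM + 1 the fall was 0.72 (adjusted p = 0.0952, exact permutation test), since DSC3 had only 0.270 TPM at day 0. Between days 9 and 90 the ratio differed by -1.44, with day 90 wells from -0.08 to 2.53 (adjusted p = 0.163, exact permutation test). PERP, a membrane protein of epithelial desmosomes, rose 2.90-fold from day 0 to day 3, and PPL, a plakin, fell 2.25-fold from day 0 to day 9.

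CTNNA3 (ENSG00000183230, chromosome 10, 65912518 to 67696169, minus strand) encodes alpha T-catenin, the alpha catenin of heart and testis, which binds plakophilin 2 and links the cadherins to actin. It rose at 3 consecutive steps. The day 0 wells had 2.11, 2.79 and 1.59 CPM, the day 3 wells 4.49, 4.51 and 5.06 CPM, and the day 5 wells 9.93 to 13.8 CPM. The day 7 wells had 20.6 to 29.9 CPM and the day 9 wells 31.7 to 82.8 CPM, with no overlap between any of these neighbours. The called steps from day 3 to day 9 were 1.26 ± 0.32, 1.16 ± 0.26 and 1.14 ± 0.26 on the log2 scale (SE, adjusted p = 0.0048, 0.0034 and 0.01, edgeR).

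The total rise of CTNNA3 from day 0 to day 9 was 25.4-fold (adjusted p = 1.2e-12, edgeR). At day 90 the wells had 138, 504 and 167 CPM, all above day 9, with a log2 fold change of 2.29 ± 0.29 (SE, adjusted p = 4.7e-08, edgeR). Without replicate 4 of day 90 it was 1.47 and still called. The early rise from day 0 to day 3, 1.11 ± 0.37 (adjusted p = 0.023, edgeR), lost its call without replicate 1 of day 0 (adjusted p = 0.058), replicate 3 of day 0 (0.10) or replicate 3 of day 3 (0.057). Several genes lie within this long gene, among them LRRTM3 on the other strand, so low CTNNA3 values are uncertain.

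Against CTNNA1, the alpha catenin found in most cells, the ratio of CTNNA3 within a library rose by 4.10 on log2(TPM + 0.1) from day 0 to day 9 (adjusted p = 0.0286, exact permutation test). From day 9 to day 90 it differed by 0.69 (adjusted p = 0.143, exact permutation test), while on counts + 1 the difference was 1.21 (adjusted p = 0.0238, exact permutation test). Of 10 other adherens junction genes, 1 rose and 2 fell from day 0 to day 9. That share is near the 31.7% called over all tested genes. CDH2 (N-cadherin, the classical cadherin of the disc) rose from 96.7 to 377 CPM, and CDH1 (E-cadherin) fell from 324 to 94.1 CPM. The neural alpha catenin CTNNA2 fell from 22.4 to 4.50 CPM. From day 9 to day 90, ARVCF rose 2.43-fold and CDH1 fell 2.18-fold.

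XIRP1 (ENSG00000168334, chromosome 3, 39183210 to 39192596, minus strand) encodes Xin, a striated muscle protein that binds actin at the disc. It had the widest range of the 10 genes. The 12 wells up to day 3 had 0.482 to 1.58 CPM, and the 5 day 5 wells had 34.6, 29.2, 19.4, 18.8 and 31.5 CPM. The rise from day 3 to day 5 was 4.55 ± 0.76 on the log2 scale (SE, adjusted p = 2.9e-05, edgeR), and the rise from day 5 to day 7 a further 2.28 ± 0.52 (adjusted p = 0.0035). At day 9 the wells had 230, 242, 98.5, 264 and 272 CPM, 229-fold above day 0 (adjusted p = 1.9e-09, edgeR).

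Wells of 1 group differed widely in XIRP1 after day 9. The day 11 wells had 89.2, 47.4, 269, 302 and 250 CPM, and the 2 low ones are the wells with the high epithelial and endoderm sum. Their cardiomyocyte sums were 7690 and 5053 CPM against 18554 to 19581 CPM in the other 3. These 2 wells also had lower RNA integrity scores, 8.6 and 8.0 against 9.2 to 9.5. Their total counts were 18014203 and 19060126, against 23631168 to 31323325. The day 30 wells had 327, 253 and 2498 CPM, and the day 90 wells 203, 768 and 269 CPM. From day 9 to day 90 the difference was 0.90 ± 0.56 (log2, SE, adjusted p = 0.21, edgeR), and 0.10 without replicate 4 of day 90. Replicate 3 of day 30, with 2498 CPM of XIRP1, had the lowest cardiomyocyte sum of its group, 7363 CPM. Whether the mix of cells or the RNA quality has a part in these differences was not tested.

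The level of XIRP1 before day 5 was low in the wells of every sequencing lane. Lane 3, which also carried the day 30 well with 2498 CPM, held 3 early wells with 1.28 to 1.58 CPM. The 4 early wells of lane 1 had 0.707 to 0.964 CPM, the 2 of lane 2 had 0.482 to 0.856 CPM, the 2 of lane 4 had 0.665 to 1.38 CPM and that of lane 5 had 0.729 CPM. The range of lane 4 overlaps with that of lane 3, and the others lie below it. The part of the lane in these early levels was not tested. Folds of XIRP1 against days 0 to 3 therefore rest on 15 to 42 counts per early well.

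The window before the start of XIRP1 is shown because this gene rose most, and that of CTNNA3 because it rose over the same days. Both are the 250 bases before the RefSeq start (GRCh38.p14, minus strand, written 5′ to 3′ on that strand), at chr3:39192596-39192845 and chr10:67696196-67696445 (the outer of 2 starts). Capitals mark matches to the motifs searched.
XIRP1: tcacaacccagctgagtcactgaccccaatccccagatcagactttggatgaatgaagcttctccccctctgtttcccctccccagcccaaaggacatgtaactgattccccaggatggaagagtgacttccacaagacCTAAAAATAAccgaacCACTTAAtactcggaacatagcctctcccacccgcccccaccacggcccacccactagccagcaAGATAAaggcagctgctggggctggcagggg
CTNNA3: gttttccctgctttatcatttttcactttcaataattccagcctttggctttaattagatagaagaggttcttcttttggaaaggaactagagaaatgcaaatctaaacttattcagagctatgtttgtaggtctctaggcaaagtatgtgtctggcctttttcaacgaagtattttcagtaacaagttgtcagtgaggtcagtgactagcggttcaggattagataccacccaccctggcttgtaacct

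The motifs were searched on both strands in windows from 250 bases before to 50 after each start, of which the RefSeq table holds 35116 in all and 12 for 8 of the 10 genes. GJC1 and PKP2 were not in that table. In the XIRP1 window the MEF2 consensus matched as CTAAAAATAA at -111 from the start, the NKX2-5 letters TNAAGTG matched on the reverse strand as CACTTAA at -95, and the GATA letters AGATAA matched at -31. These matches do not overlap each other. The same motifs occur in 2.99%, 10.2% and 10.3% of all windows. The MEF2 consensus was taken after the XIRP1 sequence had been seen. The pattern first searched for MEF2, CTA and TAG with any 4 bases between them, matched 2.73% of all windows and none of the 12. The T-box letters GGTGTGA (3.45% of all windows), the TCF/LEF letters CTTTGAA (4.43%), TATAAA (11.5%) and the CArG consensus (1.29%) matched none of the 12 windows. A match is a run of letters and no evidence of binding.

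Of 12 other disc-associated genes, 2 rose and 0 fell between days 0 and 3, a share near the 16.6% called over all tested genes. By day 9, 5 had risen and 1 had fallen against day 0, beside 31.7% called over all tested genes. Between days 9 and 90, 7 rose and 0 fell, beside 23.9%. The median log2 fold change of the 12 was 0.89 for the days 0 to 9 and 1.90 for the days 9 to 90. FLNC (filamin C, an actin crosslinker of muscle) rose early, from 65.6 to 612 CPM by day 3. POPDC2 and BVES, membrane proteins of the Popeye family, rose from 0.879 to 138 CPM and from 5.48 to 96.8 CPM between days 0 and 9. DES (desmin, the muscle intermediate filament protein) rose 17-fold from day 0 to day 9 and a further 5.64-fold by day 90. NRAP, a disc and myofibril protein, had 0.111 ± 0.115 CPM at day 9, which is within the level of 3 counts, and 71.9 ± 45.1 CPM at day 90, and was called as risen.

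The 10 genes had different companions over the 12 group means of log2 CPM, taken from protein-coding genes whose mean TPM reached 5 in some group. Nearest to XIRP1 were ACTC1, TNNT2 and SMYD1 (Pearson's r 0.993, 0.992 and 0.992), which are heart muscle genes. Nearest to PKP2 were TBX20, CCDC50 and PXDC1 (0.995, 0.995 and 0.989), and nearest to CTNNA3 were MTUS2, PTGES3L and MSRB3 (0.997, 0.994 and 0.993). JUP ran closest to RGS4, KRT8 and GATA5 (0.983, 0.980 and 0.973). DSP ran closest to CCDC92, TNRC18 and MCC (0.982, 0.981 and 0.976), and DSG2 to TMEFF1, TOM1L1 and ZNF813 (0.974, 0.972 and 0.970). For GJA5 they were LGALS3, TACC2 and MAP1LC3B (0.968, 0.968 and 0.964), and for GJA1 APEX2, CWC22 and ADCY2 (0.958, 0.957 and 0.951). DSC2 and GJC1 had the least close companions, CLCN5 (0.928) and PTK7 (0.905).

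Among the 10 genes themselves, CTNNA3 and XIRP1 were the most alike (r = 0.967 over 12 group means), followed by PKP2 and XIRP1 (0.959). GJA1 and XIRP1 were the most opposed (r = -0.92). These values describe group means that share libraries, depth and the course of differentiation, and carry no test.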

How the data were processed

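The deposited gene table holds estimated counts made by the authors, not scaled between libraries, and 93.8% of its values were whole numbers. A further table deposited by the authors holds TPM (a level per transcript length), which are scaled for transcript length within each library. The authors also deposited an RNA integrity score, from 7.4 to 10 over the 44 libraries, and the sequencing lane. Per the submitters' processing notes, the tools were cutadapt, STAR 2.5.2b and RSEM 1.2.31, and the build was hg38. Whether the counting used strand is not given in the sources used here. Both gene tables list 60499 Ensembl identifiers, of which 56769 received a symbol from GENCODE 29, and 0 data columns lacked a labelled sample.

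Estimated counts were rounded to whole numbers. The filterByExpr step of edgeR 4.0.16 (R 4.3.3) left 22955 genes, among them all 10 genes described. Scaling used the TMM method, a trimmed mean of log ratios. All 44 libraries entered 1 quasi-likelihood model with a mean for each group, and p-values were adjusted by Benjamini-Hochberg over all tested genes within each comparison. A gene was called at an adjusted p under 0.05 and an absolute log2 fold change of at least 1. Ratios of 2 genes within a library were compared on log2(TPM + 0.1) with two-sided exact permutation tests, adjusted over 8 tests. The steps were tested on simulated data.

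Total counts ranged from 6937136 to 33498022 per library, and the smallest level taken as seen was 3 counts, which is 0.0896 to 0.432 CPM. This floor covers counting error only, because the libraries carry no molecular identifiers. The genes described and the lists of related genes and cell type markers were chosen with earlier results of these data known. From each list of related genes at most 3 called genes per comparison are named, those with the largest change whose mean TPM reached 1 in the higher group.

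Alternatives were RLE size factors, no filter on low counts, lane or RNA integrity as a covariate, a replicate block, a fit of the compared groups only, DESeq2 1.42.0, limma 3.58.1 on log2 TPM, and leaving out each well. Leaving out day 30 replicate 3 with day 90 replicate 4, and day 9 replicate 2 with day 11 replicates 1 and 2, was chosen after seeing the data. Replicate numbers in the labels were checked for pairing by the correlation of same-numbered wells around their group means. Every pair correlated over 0.1 only for day 9 and day 7 among the comparisons with 3 or more pairs. There the lowest r of the 5 pairs was 0.105 and the mean r 0.36. With the block, the same number of the 10 genes, 2, was called at that step. With 2 pairs each, every pair was also over 0.1 for day 90 and day 9 (mean r = 0.18). The same held for day 14 and day 11 (0.28) and for day 20 and day 14 (0.52).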

Additional observations from a re-analysis of the deposited data

Results flagged for a closer look

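The wells of each of the 10 genes were screened for a single well far from the others in the 4 groups of 5 wells. In 6 of 40 such groups of values the gap to the nearest well exceeded Dixon's 95% critical value. Its nominal rate of 5% is for independent normal values. The 10 genes share the same wells, so 6 of 40 is not shown to be an excess. GJA5 at day 5 had 0.478 CPM in replicate 4 against 1.16 to 1.28 CPM in the other wells. PKP2 at day 5 had 196 CPM in replicate 5 against 256 to 263 CPM. DSC2 at day 7 had 154 CPM in replicate 2 against 131 to 136 CPM. The other 3 lie in wells with a high level of epithelial and endoderm markers. DSG2 had 287 CPM in replicate 2 of day 9 against 207 to 218 CPM, and 294 CPM in replicate 2 of day 11 against 183 to 199 CPM. XIRP1 had 98.5 CPM in replicate 2 of day 9 against 230 to 272 CPM. The part of those markers' cells in these values was not tested.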

How the results depend on the processing

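No called result changed sign under any alternative run. Among results of the 10 genes that were not called, 6 changed sign with limma on log2(TPM + 1), namely DSP (-0.28), DSC2 (-0.57) and JUP (-0.14) for day 9 against day 3, GJC1 (-0.48) and DSG2 (-0.25) between days 0 and 9, and GJC1 (-0.17) between days 9 and 90, and 3 changed sign when 1 well was left out. Counts of called genes that moved by over 1.5 times did so with limma on log2(TPM + 1): 3 in place of 5 of the 10 genes for day 3 against day 0, and 9 in place of 15 pairs over the steps. Summed over the 4 spans, the other connexins gave 10 calls in place of 28, the other desmosome genes 5 in place of 13, and the other adherens junction genes 13 in place of 7, or 14 with log2(TPM + 0.1); the cause was not tested. The ratio of DSC2 to DSC3 for day 9 against day 0 was -0.72 with TPM + 1, and that of CTNNA3 to CTNNA1 for day 90 against day 9 was 1.21 on counts + 1. Leaving out 1 well gave 4 to 5 called genes over days 0 to 3, 5 over days 3 to 9, 8 over days 0 to 9, 4 over days 9 to 90 and 14 to 16 pairs over the steps. In the same way the ratio of GJA5 to GJA1 gave 5.99 to 6.45 (day 9 against day 0) and 1.16 to 1.61 (day 90 against day 9), and GJC1 to GJA1 gave 2.66 to 2.99 for day 9 against day 0. DSC2 to DSC3 gave -2.14 to -1.80 and CTNNA3 to CTNNA1 3.56 to 4.37 for day 9 against day 0. After adjustment those ratios missed the threshold once a well of a group of 3 was left out, and there fewer splits of the wells are possible. Without day 90 replicate 4, 4 genes were still called against day 9, with DSP in place of DSC2. With the replicate block 5, 5, 8 and 3 genes were called over the 4 spans and 15 pairs over the steps, and DSC2 from day 9 to day 90 (-0.99) was the only call among the 10 genes that it changed. Without day 9 replicate 2 and day 11 replicates 1 and 2, 17 pairs over the steps were called, and without day 30 replicate 3 and day 90 replicate 4, 16. Depth limits GJA5 most, with 11 to 34 counts per well at day 5 and 13 to 19 in the pluripotent wells, and XIRP1 up to day 3, with 15 to 45 counts.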
